A study of Mus musculus with 2 samples.

Results

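The Mir28, Mir151 and Mir708 family was examined in mouse skeletal muscle. Its 5 microRNA genes, Mir28a, Mir28b, Mir28c, Mir151 and Mir708, were taken by their GENCODE M21 gene names from the 2202 microRNA genes that were counted. Small RNA under 30 bases had been sequenced from the gastrocnemius, the large calf muscle, of adult male mice of strain 5xFAD/CAST at 8 to 10 months of age. The study holds 1 group with 2 libraries, labelled biological replicates 1 and 2, and no comparison of conditions. 5xFAD mice carry transgenes used to model brain amyloid, and CAST names an inbred strain derived from wild mice. Whether the sampled mice carried the transgenes is not stated. Both libraries carry the same donor record and separate tissue records, so the spread between them may be partly technical. Whether they come from separate animals is not stated, so n = 2 below counts libraries.

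A microRNA is cut from a hairpin, which can yield a mature strand from its 5′ arm (5p) and another from its 3′ arm (3p). Bases 2 to 8 of the mature strand, the seed, largely choose the messenger RNAs it represses. Hairpins in introns are often made together with the message of their host gene. Mir28 and Mir151 are known to derive from LINE-2 transposable elements. In mouse muscle, miR-708 is known for its part in keeping satellite cells, the muscle stem cells, quiescent. Human miR-151 is known for promoting the movement of liver cancer cells, and human miR-28 for restraining B-cell lymphoma.

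The mature strands below show how the members are related, with the seed in capitals. They are RefSeq sequences on build GRCm38.p6, written 5′ to 3′, and 3 of the 5 members matched that table. Mir151 and Mir28c are named only.
miR-28a-5p: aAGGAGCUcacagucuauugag
miR-708-5p: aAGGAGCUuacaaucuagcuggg
miR-28b: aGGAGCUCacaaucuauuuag
miR-28a-3p: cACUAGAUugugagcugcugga
miR-708-3p: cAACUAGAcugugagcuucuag

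The strands miR-28a-5p (chr16:24827868-24827889) and miR-708-5p (chr7:96249450-96249472) had the same seed, AGGAGCU, and lie on the plus strand. Over 22 aligned bases they had 16 in common. Counted from the 5′ end of miR-28a-5p, the differences were C9U, G13A, U18G, U19C, G20U and A21G, all after the seed. The strand miR-28b (chr8:73016523-73016543, plus strand) starts at position 2 of miR-28a-5p, so its seed is shifted by 1 base to GGAGCUC. It matched 19 of 21 aligned bases, with the differences G13A and G20U in the numbering of miR-28a-5p. The 3p strands matched at 17 of 21 aligned bases, and miR-708-3p starts 1 base before miR-28a-3p, so their seeds ACUAGAU and AACUAGA are offset. Among the 1738 mature strands of the RefSeq table, no non-member had one of these seeds at bases 2 to 8.

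The likeness also bears on counting, because the files hold reads that aligned to several places in a total of their own and, by that layout, in no gene. These reads made up 60.2% of replicate 1 and 63.2% of replicate 2, and how many came from the family is not known. Positions 2 to 21 of miR-28a-5p, a run of 20 bases, also occur in the hairpin of Mir28c. Positions 2 to 23 of miR-708-5p, a run of 22 bases, also occur in the hairpin of Gm23134, an annotated microRNA gene in an intron of Blcap (chr2:157562361-157562447, minus strand). No read was counted for Gm23134 on either strand in either library. The 3p strands had much shorter shared runs, of 11 bases for miR-28a-3p and 10 bases for miR-708-3p. Mir151 shared at most 17 bases with another member, Mir28c, and 11 bases with any non-member. The levels of Mir28a, Mir28c and Mir708 are therefore uncertain. Only hairpins of annotated microRNA genes were searched, and not the rest of the genome. Loss of reads of Mir151 or Mir28b to other places was thus not tested. The files count both arms of a hairpin together, so 5p and 3p levels could not be separated.

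Mir151 was the most abundant member, followed by Mir28a and Mir708, while Mir28b and Mir28c were close to absent from the counts. Levels are given as CPM, the reads of a gene scaled to 1000000 sense reads in microRNA genes. Detection required at least 2 CPM in each library, which 3 of the 5 members reached, beside 321 of the 2202 genes. Together the family held 0.839% ± 0.0459 of the sense microRNA reads (SD, n = 2). The share was 0.871% in replicate 1, from 10081 reads, and 0.806% in replicate 2, from 9620 reads. The exact Clopper-Pearson 95% intervals, 0.854 to 0.888% and 0.79 to 0.822%, did not overlap. Such intervals cover counting error only, since reads copied by PCR are not independent molecules. In whole tissue, fewer cells of a type and less RNA per cell cannot be told apart.

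Mir151 (ENSMUSG00000065612.1, chr15:73254815-73254882, minus strand) had 8509 reads in replicate 1 and 7602 in replicate 2. These correspond to 7352 CPM (95% interval 7197 to 7509) and 6370 CPM (6228 to 6514), or 6861 ± 694 CPM (SD, n = 2). It ranked 23 among all 2202 genes by mean level and supplied 84.4% and 79% of the family's reads. Its hairpin lies in intron 22 of 31 of Ptk2, the gene of focal adhesion kinase, which signals from integrins at contacts with the matrix. It ranked 9 among the 733 microRNA genes annotated in an intron of a protein-coding gene on the same strand.

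Mir28a (ENSMUSG00000065494.1, chr16:24827855-24827940, plus strand) had 1423 reads in replicate 1 and 1918 in replicate 2. The levels were 1229 CPM (1166 to 1295) and 1607 CPM (1536 to 1681), or 1418 ± 267 CPM (SD, n = 2), at rank 49. Its higher value was in replicate 2, where that of Mir151 was in replicate 1, and its part of the family's reads went from 14.1% to 19.9%. The hairpin lies in intron 8 of 12 of Lpp, which encodes a LIM-domain protein of focal adhesions that is abundant in smooth muscle. Mir28a ranked 18 among the intronic genes.

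Mir708 (ENSMUSG00000076143.1, chr7:96249424-96249532, plus strand) had 147 and 100 reads in replicates 1 and 2. Its levels were 127 CPM (107 to 149) and 83.8 CPM (68.2 to 102), or 105 ± 30.6 CPM (SD, n = 2), at rank 127. It supplied 1.46% and 1.04% of the family's reads, although its 5p strand has the same seed as that of Mir28a. Its hairpin lies in intron 1 of 32 of Tenm4, which encodes a teneurin, a large transmembrane protein of cell contacts. Mir708 ranked 50 among the intronic genes, and 60.4% of detected genes had a lower mean level.

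Mir28b (ENSMUSG00000093140.1, chr8:73016512-73016591, plus strand) and Mir28c (ENSMUSG00000104794.1, chr15:53614205-53614279, minus strand) each had 1 read in replicate 1 and 0 in replicate 2. A single read was 0.864 CPM (0.0219 to 4.81) in replicate 1, and 0 reads allow up to 2.51 CPM in replicate 2 (3 counts of the total). Neither was detected, and at this depth a level near 2 CPM could not have been told from none. In replicate 1 Mir151 was 8509-fold above either gene (1527 to 336127), and in replicate 2 at least 2534-fold higher by the limit of 3 counts. Mir708 was 147-fold above either in replicate 1 (26 to 5845) and at least 33.3-fold higher in replicate 2 by that limit.

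**Figure D1:**
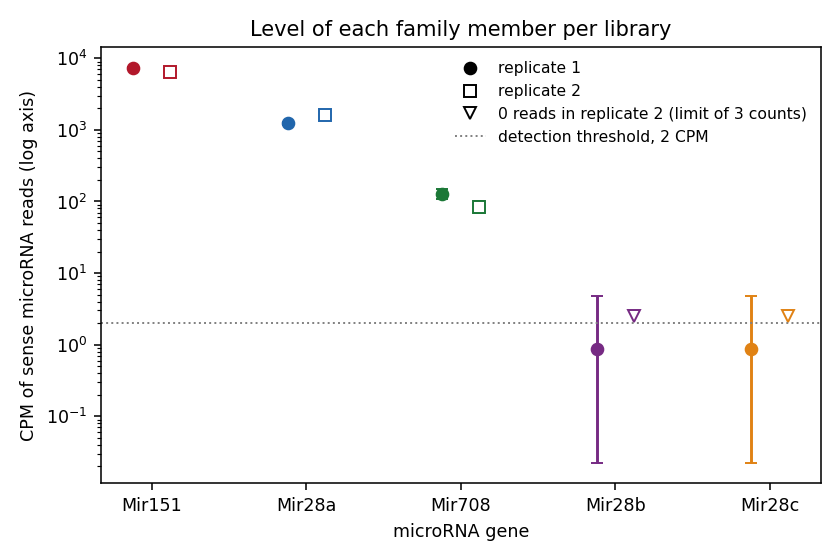
CPM (log axis) of each member in each library, with exact 95% intervals for counting error; circles are replicate 1, squares replicate 2, and triangles mark the limit that 0 reads allow. Mir151, Mir28a and Mir708 are separated in both libraries, from 6370 to 7352 CPM, 1229 to 1607 CPM and 83.8 to 127 CPM, while Mir28b and Mir28c sit below the threshold of 2 CPM in replicate 1.

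The order Mir151, Mir28a, Mir708 was the same in both libraries, and for each pair the lower value of the higher gene exceeded the higher value of the lower gene. Mir28b and Mir28c, level with each other, could not be ordered. On the scale of reads per locus, Mir151 was 5.98-fold above Mir28a in replicate 1 (exact 95% interval 5.65 to 6.33) and 3.96-fold in replicate 2 (3.77 to 4.17). Mir28a was 9.68-fold above Mir708 in replicate 1 (8.16 to 11.6) and 19.2-fold in replicate 2 (15.7 to 23.7). Mir151 was 57.9-fold above Mir708 in replicate 1 (49.2 to 68.6) and 76-fold in replicate 2 (62.4 to 93.6). On the scale of reads per base of hairpin, which runs from 68 bases for Mir151 to 109 for Mir708, the order was the same. Mir151 was then 7.56-fold and 5.01-fold above Mir28a in replicates 1 and 2, and Mir28a was 12.3-fold and 24.3-fold above Mir708. All these folds compare counted reads, and their intervals do not cover reads of a member that aligned to several places.

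**Figure D2:**
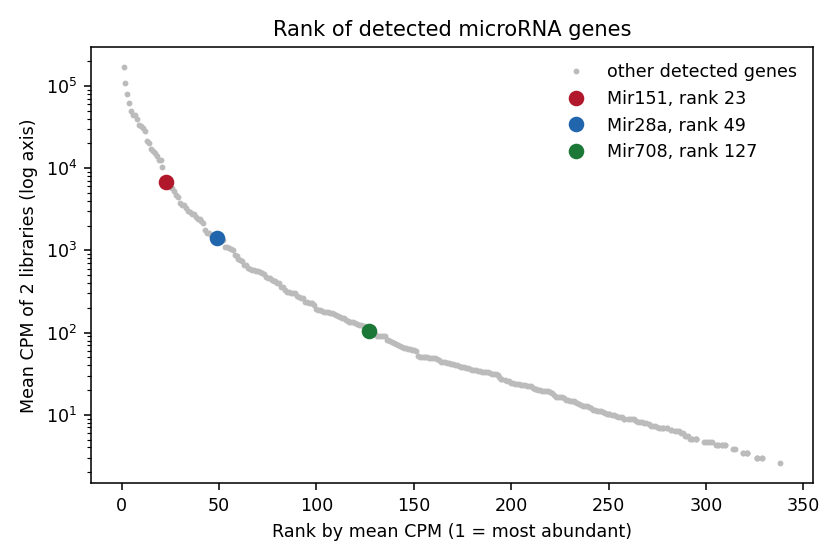
Mean CPM of the 2 libraries (log axis) against rank for the 321 detected microRNA genes, 1 point per gene. Mir151 at rank 23, Mir28a at rank 49 and Mir708 at rank 127 are spread over the upper part of the curve.

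The genes nearest to each member in level were found by distance over log2(CPM + 1) in the 2 libraries, among 318 other detected genes. Mir151 lay nearest to Mir30d, a miR-30 family gene, at 7435 and 5879 CPM in replicates 1 and 2, then to Mir191 and Mir196b. Mir28a lay nearest to Mir615, at 1310 and 1394 CPM, then to Mir361 and Mir29c, of the miR-29 family. Mir29c and Mir615, like Mir28a, had the higher value in replicate 2, with 1189 and 2041 CPM for Mir29c. Mir361 went the other way, with 1447 and 1356 CPM. These genes were picked by the same values, so a like direction is partly built in. Mir708 lay nearest to Mir330, at 121 and 83.8 CPM, then to Mir203, an epithelial microRNA, and Mir181d. With 2 libraries, such likeness is of level and little more.

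The members differed in their setting within the host genes. Mir28a, Mir28c, Mir151 and Mir708 lie in introns on the strand of the host, as do 33.3% of all microRNA genes in the files. Mir28b does not. Mir28c lies in intron 4 of 4 of Samd12. The introns around the hairpins were 14.6 kb long for Mir151, 82.8 kb for Mir28a, 143 kb for Mir708 and 196 kb for Mir28c. The nearest upstream exon was 2.15 kb away from Mir151, 65.6 kb from Mir28a, 37.4 kb from Mir708 and 44.1 kb from Mir28c. Mir151, the most abundant, had the shortest intron and the shortest distance to an upstream exon of these 4. Mir28a, next in level, had the longest distance to an upstream exon. A link between level and these distances was not tested.

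**Figure D3:**
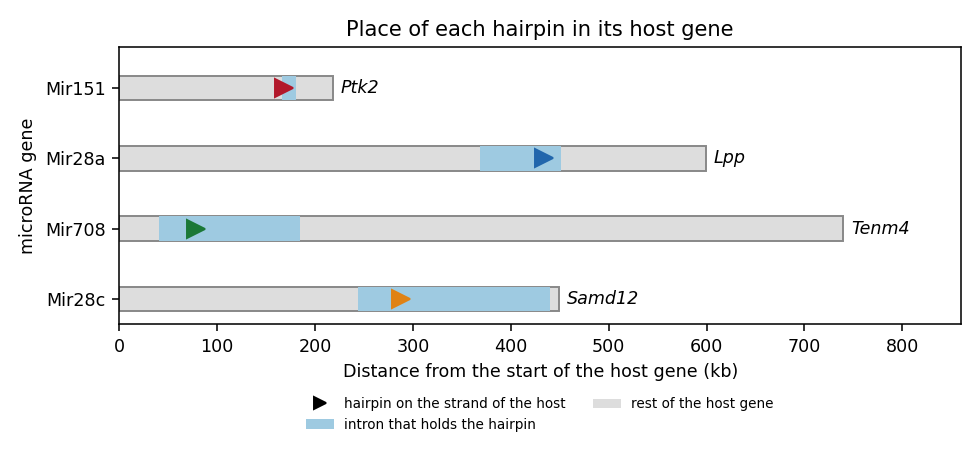
Distance from the start of each host gene (kb), with the host as a grey bar, the intron around the hairpin in blue and the hairpin as a triangle, for the 4 members in an intron on the strand of the host. Mir151 sits 168 kb into Ptk2, Mir28a 434 kb into Lpp, Mir708 78.2 kb into Tenm4 and Mir28c 288 kb into Samd12.

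The predicted stability of the hairpins also differed. The minimum free energy from RNAfold was -0.61 kcal/mol per base for Mir151, and 3.04% of microRNA genes had a lower value. It was -0.43 for Mir28a and -0.41 for Mir708, with 26.3% and 34.4% of genes lower. It was -0.28 for Mir28b and -0.16 for Mir28c, with 83.9% and 99.2% of genes lower, which puts Mir28c among the least stable hairpins of the annotation. Per base, the order of stability was the order of level, with Mir28b and Mir28c tied in level. For the whole hairpin the order was different: the free energy was lowest for Mir708, at -45.1 kcal/mol, then -41.5 for Mir151, -37.4 for Mir28a, -22.4 for Mir28b and -12.2 for Mir28c. This is a description of 5 genes grouped for their likeness.

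Most genes of each setting in the files went undetected. Of the 733 genes in an intron on the strand of the host, 117 were detected (16%), of the 246 in an exon on the same strand 42 (17.1%), of the 303 on the opposite strand of a gene 29 (9.57%), and of the 920 outside protein-coding genes 133 (14.5%). Of the 4 members in the first class 3 were detected, and Mir28b, which is outside it, was not.

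The members were almost free of reads from the opposite strand. The family had 0 such reads among 10081 in replicate 1, which allows a share of up to 0.0298%, and 1 among 9621 in replicate 2, at Mir708, or 0.0104% (2.6e-04 to 0.0579%). Over all microRNA genes the opposite strand held 21.9% and 23.9% of the reads in genes, but 96% and 96.3% of detected genes had none. Those opposite-strand totals, 325200 and 375134 reads in replicates 1 and 2, nearly equal the 325180 and 375109 reads counted as ambiguous with strands together. The share over all genes is therefore no plain background for the family. No counted microRNA gene lies on the opposite strand of a member.

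Replicate 2 was set against replicate 1 for each detected gene, after scaling by the trimmed mean of M values (TMM). Of the 3 detected members, Mir28a was higher in replicate 2, Mir151 passed the test with a much smaller difference, and Mir708 did not pass. The two-sided exact conditional binomial test called 37.4% of the 321 detected genes, 60 in each direction (18.7%), so 2 calls among 3 members are read against that background. Among the 128 detected genes at 100 CPM or more, where all 3 members lie, it called 86, or 67.2%. The test sets the libraries against each other and counts no biological spread. It says nothing of a condition.

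Mir28a had 1106 CPM in replicate 1 and 1787 CPM in replicate 2 after scaling, and was 1.62-fold higher in replicate 2 (1.51 to 1.73, exact binomial adjusted p = 2.3e-42). Its log2 ratio of 0.69 was exceeded in size by 27.1% of detected genes. Mir151 had 6611 and 7084 CPM after scaling, and was 1.07-fold higher in replicate 2 (1.04 to 1.11, exact binomial adjusted p = 5e-05). Its log2 ratio of 0.10 was exceeded in size by 86.6% of detected genes. With total counts only, where the median over all detected genes was -0.30 instead of -0.01, the call of Mir151 reversed: it was lower in replicate 2, at -0.21 (exact binomial adjusted p = 6.7e-19). That setting called 46.4% of detected genes, and 35.5% were called lower in replicate 2. The exact test of edgeR with an assumed dispersion of 0.01 called 16.5% of detected genes. Mir28a was among them (adjusted p = 0.0088) and Mir151 was not (adjusted p = 0.88). Mir708 had 114 and 93.2 CPM after scaling, a fold of 0.816 for replicate 2 over replicate 1 (0.626 to 1.06, exact binomial adjusted p = 0.24). With total counts only its log2 ratio was -0.59 and passed (exact binomial adjusted p = 0.004).

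**Figure D4:**
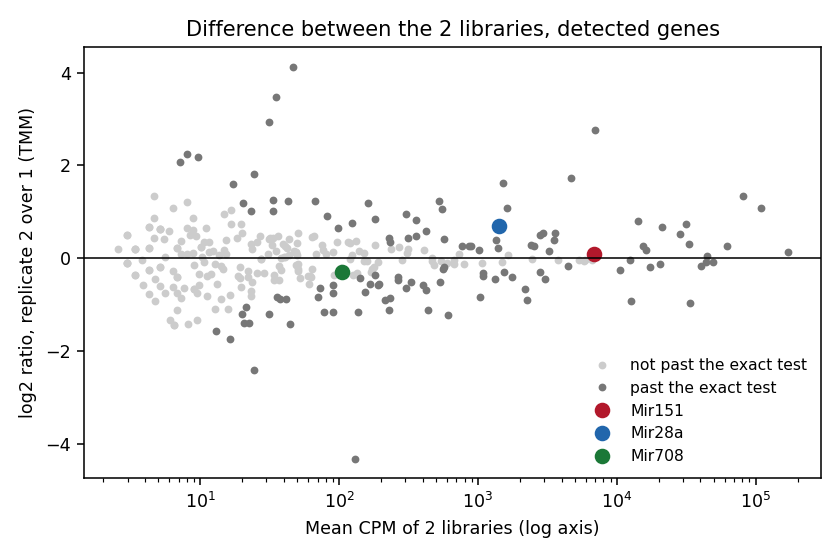
Log2 ratio of replicate 2 over replicate 1 after TMM scaling against mean CPM (log axis), 1 point per detected gene; dark grey points passed the exact binomial test. Mir28a stands at 0.69, Mir151 at 0.10 and Mir708 at -0.29, all inside the range of other genes of similar level.

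A ratio between members within a library needs no scaling. Mir151 over Mir28a went from 5.98-fold to 3.96-fold between replicates 1 and 2, and the intervals did not overlap. Mir28a over Mir708 went from 9.68-fold to 19.2-fold, 1.98 times as much, again without overlap. For Mir151 over Mir708, at 57.9-fold and 76-fold, the intervals overlapped. Differences of this size were common between the libraries. Of all pairs among the 128 genes at 100 CPM or more, 44.9% differed by more than the pair of Mir151 and Mir28a, at 0.59 in log2 ratio of Mir28a minus Mir151. For Mir708 against Mir28a, at -0.99, 23.6% of pairs differed by more.

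**Figure D5:**
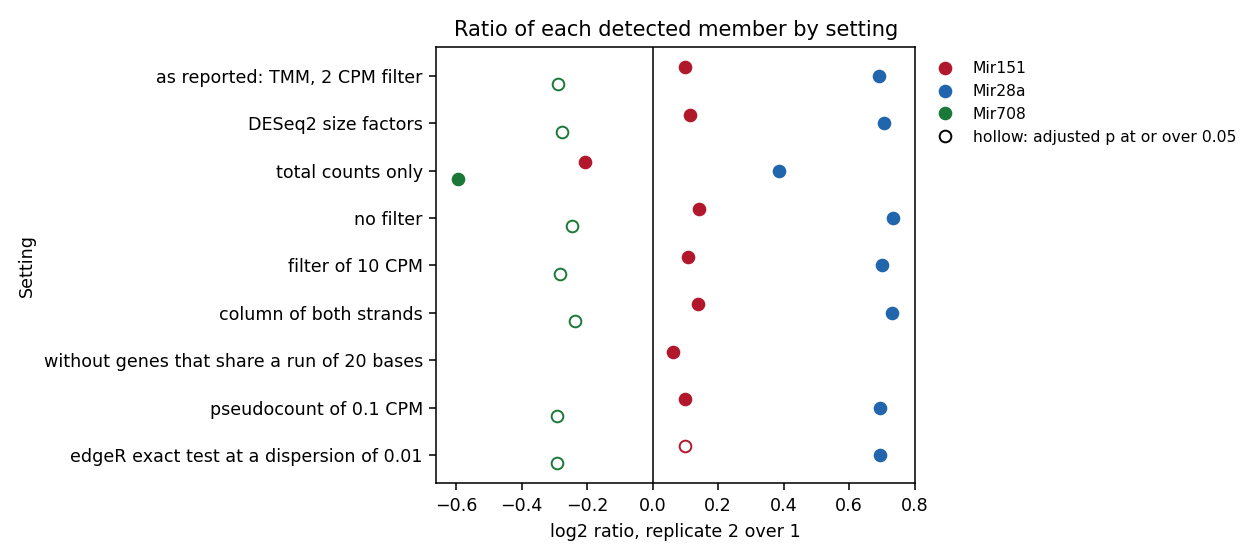
Log2 ratio of replicate 2 over replicate 1 of each detected member (horizontal axis) under each setting (vertical axis); filled points have an adjusted p under 0.05. Mir28a lies between 0.39 and 0.74 in every setting where it was tested, Mir151 crosses 0 with total counts only, and Mir708 is below 0 throughout where tested.

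Of the 117 detected intronic microRNA genes, 26 were higher and 17 lower in replicate 2, and 74 did not pass, with a median log2 ratio of 0.06. Of the 204 other detected genes, 34 were higher and 43 lower, and 127 did not pass, with a median of -0.04. The test called 36.8% of the intronic and 37.7% of the other genes, and the difference between the classes was not tested.

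The libraries held 1157420 and 1193393 sense reads in microRNA genes, of 6119818 and 6632802 reads in all, and a chi-square test over the detected genes set their counts apart beyond counting noise (93784 on 320 degrees of freedom). The muscle label was checked on 9 striated muscle microRNAs, of which 8 were detected, led by Mir206, specific to skeletal muscle, at 32948 and 32931 CPM. The counts of the Mir1a and Mir133 loci, defining for striated muscle, were low, from 0 CPM for Mir133a-2 in replicate 2 to 51.8 CPM for Mir1a-2 in replicate 1. By the layout of the counts, reads that fit more than 1 of these loci enter no gene. The low counts therefore do not show that these microRNAs were scarce. As counted, the striated muscle list held 3.87% and 3.73% of the sense reads in replicates 1 and 2. Markers of other cell types were present, and 2 lists held more. The endothelial Mir126a held 8.08% and 13.8% of the sense reads and the smooth muscle list 5.08% and 4.21%. The 4 of 4 leukocyte markers held 0.318% and 0.225%. Both erythroid markers were detected, at 0.0163% and 0.0153% together, but they moved in opposite directions. Mir144 had 9 reads in replicate 1 and 65 in replicate 2, and Mir451a had 180 and 117. The liver marker Mir122 had 12 and 13 reads. Of the 3 nerve markers, Mir9-2 and Mir124a-1 had 0 reads in both libraries and Mir128-1 had 295 and 419.8 CPM. The counts of 0 do not show absence, since reads that fit several such loci would enter no gene. As shares of the sense reads, Mir126a, like Mir28a, was higher in replicate 2, and the smooth muscle list was lower. The part of these cell types in the family's levels was not tested.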

How the data were processed

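The authors deposited whole-number read counts per microRNA gene for each library, not normalized, in 3 columns without a header: both strands together, sense reads, and reads of the opposite strand. The first column is not always the sum of the others, since reads that fit genes on both strands count as ambiguous there. Text deposited beside the files names mm10 as the assembly and M21 as the GENCODE release. The tool that aligned and counted the reads is not given in the sources used here. In each file 4 leading lines of read totals, 81.1% of the reads of replicate 1 and 82% of replicate 2, entered neither library sizes nor tests. All 2202 identifiers matched GENCODE M21, which gave positions, hosts and hairpins.

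CPM used the sense column. TMM factors (edgeR 4.0.16, R 4.3.3) over detected genes were 1.11 and 0.899. Replicate 2 was compared with replicate 1 by a two-sided exact conditional binomial test with Benjamini-Hochberg adjustment at 0.05 over all detected genes. Log2 ratios were taken after adding 1 CPM. The quasi-likelihood test was not used, since 1 group was sampled. The introns are those of the principal coding transcript. RNAfold 2.7.2, Python 3.11.15 and scipy 1.17.1 were used. The test step was run on simulated counts that held counting error only. It was not checked against the larger spread seen between these libraries.

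Alternatives were DESeq2 1.42.0 size factors, total counts only, detection at 10 CPM or with no filter, 0.1 CPM as the pseudocount, the column of both strands, other denominators, removal of genes that share a run of 20 bases, and edgeR's exact test with the dispersion set to 0.01. Genes named besides members were the 3 nearest in level, microRNA genes with a shared seed or on the opposite strand, and tissue markers; Gm23134 was named after its sequence match was seen. The members and lists were chosen with earlier results of these data known.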

Additional observations from a re-analysis of the deposited data

How the results depend on the processing

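Of the log2 ratios recomputed under an alternative, 19 kept their direction and side of the threshold, 1 reversed, 1 was no longer past the threshold and 1 came to pass it. With the column of both strands, the mean levels were 9757 CPM for Mir151, 2027 CPM for Mir28a and 150.0 CPM for Mir708, and the family share was 1.19%. With all reads as the denominator they were 1268, 261 and 19.5 CPM and 0.155%. Without the most abundant gene in the denominator they were 8270 CPM for Mir151 and 1705 CPM for Mir28a, with a share of 1.01%. The column of both strands held 832260 and 818309 reads in genes in replicates 1 and 2, fewer than the sense column. With strands together, 325180 and 375109 reads counted as ambiguous and entered no gene. The denominators of these alternatives are smaller or larger by construction. Per base of hairpin, Mir151 was 107-fold above Mir708, against 67-fold per locus. Leaving out a replicate gave 0.806 to 0.871% for the share, and 9.68-fold to 19.2-fold for Mir28a over Mir708; with 2 libraries these are the values of each library and no measure of stability.

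With total counts only, the log2 ratio of Mir151 was -0.21, past the threshold in the reverse direction (exact binomial adjusted p = 6.7e-19), and that of Mir708 -0.59. With the dispersion set to 0.01, edgeR's exact test called 53 genes in place of 120 and left Mir151 at 0.10, not past the threshold; the test's larger assumed spread is part of its construction. The other alternatives called 88 to 149 genes, but they did not all test the same number. Without genes that share a run, 88 of 232 genes were called (37.9%), near the 37.4% of the main setting. With total counts only, 149 of 321 were called (46.4%). By share, the lowest was 20.2% of 569 genes with no filter, and the highest 47.4% of 232 genes at 10 CPM. Total counts only split the calls into 35 higher and 114 lower, where TMM gave 60 and 60. Without genes that share a run of 20 bases, Mir28a and Mir708 gave no value. By mean CPM alone, 2 of the 3 genes nearest to Mir151, 2 of those nearest to Mir28a and 1 of those nearest to Mir708 stayed the same. Depth limits Mir28b and Mir28c, which rest on 1 read each. No paired analysis was possible because the series holds 1 group.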
